A study of Homo sapiens with 32 samples.

Results

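The comparison described here is that of polysomal mRNA from MCF10A cells kept in hypoxia (H) with polysomal mRNA from MCF10A cells kept in normoxia (N). MCF10A is an immortalized, non-tumourigenic line of human mammary epithelium. It was grown with serum, EGF, hydrocortisone, cholera toxin and insulin in both conditions. Hypoxic cells spent 24 h at 0.5% oxygen in a hypoxic chamber, and normoxic cells stayed in a normal humidified incubator. The comparison takes 4 of the 32 libraries of the study, namely 2 biological replicates of H and 2 of N. The other libraries hold total mRNA (T) of the same conditions, both fractions after 3 h with 2.5 µM of the mTOR kinase inhibitor PP242, dissolved in DMSO (NPP and HPP), and the same 8 groups for the triple-negative breast cancer line MDA-MB-231. Each line is a single cell line, so replicates measure the spread between cultures and libraries and not between people. Of 19815 genes of the protein-coding class in the table, out of 60554 genes of all classes, 13124 passed the filter on low counts and were tested. Total counts were 35834206 and 46032327 in the normoxic polysomal libraries and 30302497 and 43662665 in the hypoxic ones.

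Polysomal mRNA is the part of the cytoplasmic mRNA that sediments with several ribosomes on a sucrose gradient, so its abundance follows both how much of a transcript the cell holds and how much of it carries ribosomes. When oxygen is scarce, the prolyl hydroxylases that mark the alpha subunits of the hypoxia-inducible factors (HIF) for destruction lose their substrate. HIF then accumulates, pairs with ARNT and activates genes of glycolysis, pH control, iron and matrix handling and blood vessel growth. Low oxygen is also known to lower mTORC1 activity, on which the translation of ribosomal protein mRNAs depends.

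Levels are given below as CPM, the count of a gene scaled to the TMM-corrected total of protein-coding reads in its library, in the order normoxia replicate 1, normoxia replicate 2, hypoxia replicate 1 and hypoxia replicate 2. CPM is not corrected for gene length, so levels are compared between libraries and not between genes. A change is given as the log2 fold change (log2FC) of H over N with its standard error (SE). A gene was called where edgeR's quasi-likelihood test, with a spread estimated from all 16 MCF10A libraries, gave a Benjamini-Hochberg adjusted p under 0.05. With 2 libraries against 2 a permutation test of a single gene cannot go below p = 0.333, so each call rests on that shared spread.

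Most basal epithelial markers chosen for MCF10A were present, as were markers of some other cell types. Of 13 basal epithelial markers 11 passed the filter, and the keratin KRT5 was at 1591, 1302, 1862 and 2446 CPM. Of 8 leukocyte markers only CD68 and CD14 passed the filter, and of 6 endothelial markers 3 did, the highest of these being KDR at no more than 0.802 CPM. Fibroblast markers passed for 5 of 9, among them POSTN, which encodes the matrix protein periostin, at 661, 1047, 2168 and 2909 CPM (log2FC 1.57, SE 0.40, adjusted p = 0.0917). The summed level of the fibroblast markers was 825 and 1151 CPM in N and 2295 and 3073 CPM in H. Their part in the other results was not tested.

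The 2 replicates of N and the 2 of H stood apart in polysomal mRNA in a way that followed gene length. Ribosomal protein mRNAs took 14.3% and 8.94% of the protein-coding counts in N and 9.19% and 5.53% in H, so replicate 1 was higher in both conditions. Across genes, the difference of replicate 1 from replicate 2 had a Spearman correlation with gene length of -0.51 in N and -0.46 in H, with 13068 genes that are not independent points. Counts from mitochondrial genes made up 0.474% to 1.08% of these 4 libraries against 5.92% to 7.94% of the matching total libraries.

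In the main fit hypoxia changed a small set of polysomal mRNAs, and nearly all of the called genes were higher. Of the 13124 genes 174 were called up (1.33%) and 21 were called down (0.16%), and 1636 had an unadjusted p under 0.05. Both hypoxic libraries lay above both normoxic ones for 2263 genes (17.2%) and below them for 2653 genes (20.2%), so the excess of higher genes holds for the calls and not for the direction over all genes. The called-up genes had a median log2FC of 2.26, with 52 of 174 changed by more than 8-fold, and the called-down genes had a median of -1.58. DESeq2 called 386 up and 170 down, and a fit with an offset for gene length called 300 up and 87 down. A fit with the replicate number as a block also called more genes each way, as given at the end. The split between higher and lower calls thus depended on the method.

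The number of calls also depended on each library. Without normoxia replicate 2 the test called 49 genes up and 1 down, and without normoxia replicate 1 it called 73 and 2. Without hypoxia replicate 2 it called 96 and 5, and without hypoxia replicate 1 it called 120 and 1. A fit on the 4 libraries alone called 6 up and 0 down. The genes nearest to the threshold were ADSSL1 (adjusted p = 0.0498) on the called side and AK4 (adjusted p = 0.0505) on the other.

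**Figure D1:**
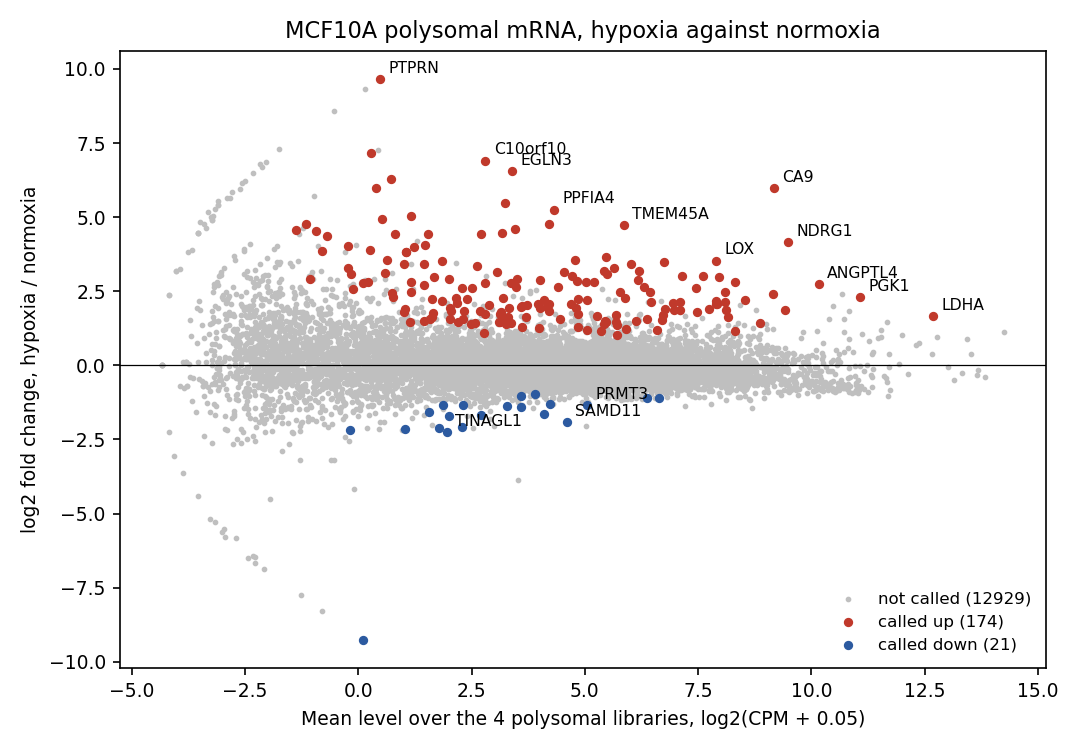
Each point is 1 of the 13124 tested genes, with its mean level over the 4 polysomal libraries as log2(CPM + 0.05) on the x axis and its log2 fold change in hypoxia over normoxia on the y axis. Red points are the 174 genes called up and blue points the 21 called down; red points lie at low and at high levels, and the highest of them is PTPRN, which had no reads in normoxia.

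EGLN3 encodes PHD3, a prolyl hydroxylase that acts on HIF-alpha and is itself a HIF target (chr14:33924227-34462774, GRCh38). It was at 0.314 and 0.140 CPM in N and at 19.5 and 21.8 CPM in H. This was a 94.5-fold rise (log2FC 6.56, SE 0.53, adjusted p = 0.000126), and it also passed in the fit on the 4 libraries alone (adjusted p = 0.0398), as did C10orf10, GPR146, PPFIA4, TMEM45A and TREM1. EGLN3 was the only 1 of the 11 tested genes of the oxygen-sensing list to be called, beside 1.33% of all genes called up. EGLN1, which encodes the main hydroxylase PHD2, was at 75.3, 91.9, 208 and 232 CPM, so its groups did not overlap, but it did not pass (log2FC 1.40, SE 0.34, adjusted p = 0.0722). EGLN1 passed with DESeq2 and in several other settings. The mRNA of HIF1A, whose product is controlled mainly by its stability, was at 269 and 373 CPM in N and at 253 and 386 CPM in H, so the groups overlapped (log2FC -0.01, SE 0.46), and the sign of this value turned in most other settings. The list's median log2FC was -0.01 (0.02 with RLE and 0.07 with upper-quartile scaling), beside -0.07 over all genes tested.

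Carbonic anhydrases that face the outside of the cell gave some of the largest responses. CA9, which converts CO2 to bicarbonate at the cell surface and is a standard marker of hypoxia (chr9:35673928-35681159, GRCh38), was at 23.6 and 12.4 CPM in N and at 1356 and 919 CPM in H. Its 63.1-fold rise (log2FC 5.98, SE 0.48, adjusted p = 0.000126) came with a normoxic level already above 10 CPM. CA12, a second membrane-bound carbonic anhydrase, was at 11.8 and 23.1 CPM in N and at 162 and 232 CPM in H (log2FC 3.49, SE 0.33, adjusted p = 0.000349). Of 9 tested genes for acid and CO2 handling 2 were thus called up, beside 1.33% of all genes, and the other 7 were not called. Among them SLC16A3, the lactate exporter MCT4, was at 1469, 1415, 2960 and 2972 CPM without passing (log2FC 1.04, SE 0.37, adjusted p = 0.239), and the cytosolic CA2 was lower in both hypoxic libraries (log2FC -1.71, SE 0.41, adjusted p = 0.0709). The list had a median log2FC of 0.07, beside -0.07 over all genes.

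Genes for glucose uptake and glycolysis were higher almost without exception, and 7 of the 22 tested were called up, beside 1.33% of all genes. Both hypoxic libraries lay above both normoxic ones for 20 of them, where 17.2% of all genes did so, and the median log2FC was 1.16 beside -0.07 over all genes. PFKFB4, a bifunctional enzyme that sets the level of the glycolytic activator fructose-2,6-bisphosphate, was at 7.37 and 9.54 CPM in N and at 62.1 and 91.6 CPM in H (log2FC 3.18, SE 0.31, adjusted p = 0.00038). ALDOC, an aldolase, was at 52.7, 32.9, 318 and 374 CPM (log2FC 3.02, SE 0.47, adjusted p = 0.00728). The enolase ENO2 was at 17.3, 16.4, 84.8 and 101.5 CPM (log2FC 2.47, SE 0.23, adjusted p = 0.000297). In each of these 3 genes the hypoxic libraries were close to each other and far from the normoxic ones.

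PGK1, which makes ATP in the lower part of glycolysis, went from 712 and 732 CPM to 3338 and 3835 CPM (log2FC 2.31, SE 0.29, adjusted p = 0.00156). The glucose transporters SLC2A1 (log2FC 1.85, SE 0.29, adjusted p = 0.00767) and SLC2A3 (log2FC 1.57, SE 0.27, adjusted p = 0.0131) also rose. LDHA, which turns pyruvate into lactate, was at 3581 and 2755 CPM in N and at 9982 and 10128 CPM in H (log2FC 1.67, SE 0.34, adjusted p = 0.0342). Reads of LDHA may be shared with its processed pseudogenes. GAPDH differed between the normoxic replicates, at 16851 and 7666 CPM, and was at 28654 and 24853 CPM in H, so a difference of this size did not pass (log2FC 1.13, SE 0.62, adjusted p = 0.519).

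Of 9 tested genes of glycogen synthesis and breakdown 4 were called up, beside 1.33% of all genes, and the median log2FC was 1.23. GYS1, the glycogen synthase of most tissues, was at 47.6, 52.5, 119 and 204 CPM (log2FC 1.69, SE 0.27, adjusted p = 0.00819). GBE1, which makes the branches of glycogen, was at 73.8, 86.9, 225 and 329 CPM (log2FC 1.79, SE 0.28, adjusted p = 0.00698). UGP2, which makes the glucose donor, passed narrowly (log2FC 1.16, SE 0.25, adjusted p = 0.0486), as did the phosphatase subunit PPP1R3C, at 0.279, 0.381, 2.07 and 5.12 CPM (log2FC 3.42, SE 0.74, adjusted p = 0.0458). UGP2 failed in 10 of 15 alternative settings and PPP1R3C in 7 of 14.

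HIF binds DNA at a core of the letters ACGTG or GCGTG, known as the hypoxia response element, so the start regions of 5 called genes are shown to let the response be read beside the sequence. They are the 250 bases before the RefSeq gene start (GRCh38.p14), written 5′ to 3′ on the strand of the gene. Capitals mark each ACGTG or GCGTG on either strand, the reverse strand reading CACGT or CACGC, and CACGTG counts as 2 matches because both strands hold the letters. The stretches are chrX:78103998-78104247 (plus strand) for PGK1, chr11:18394313-18394562 (plus strand) for LDHA, chr4:185396591-185396840 (plus strand) for ANKRD37, chr10:73096867-73097116 (minus strand) for P4HA1 and chr14:33951075-33951324 (minus strand) for EGLN3.
PGK1: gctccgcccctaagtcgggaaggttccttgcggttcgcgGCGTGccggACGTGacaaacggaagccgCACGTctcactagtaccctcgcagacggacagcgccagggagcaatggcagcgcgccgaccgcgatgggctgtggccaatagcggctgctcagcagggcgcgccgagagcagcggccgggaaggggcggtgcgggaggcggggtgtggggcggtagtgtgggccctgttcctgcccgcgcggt
LDHA: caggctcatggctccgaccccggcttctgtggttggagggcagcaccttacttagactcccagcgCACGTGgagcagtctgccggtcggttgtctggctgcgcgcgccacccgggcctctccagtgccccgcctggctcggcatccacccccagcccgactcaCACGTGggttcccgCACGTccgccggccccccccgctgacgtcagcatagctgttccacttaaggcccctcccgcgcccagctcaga
ANKRD37: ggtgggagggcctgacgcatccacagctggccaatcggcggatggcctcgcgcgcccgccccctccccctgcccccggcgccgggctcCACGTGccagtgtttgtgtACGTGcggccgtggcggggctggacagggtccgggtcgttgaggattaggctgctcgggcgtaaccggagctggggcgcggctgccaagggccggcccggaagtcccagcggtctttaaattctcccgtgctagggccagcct
P4HA1: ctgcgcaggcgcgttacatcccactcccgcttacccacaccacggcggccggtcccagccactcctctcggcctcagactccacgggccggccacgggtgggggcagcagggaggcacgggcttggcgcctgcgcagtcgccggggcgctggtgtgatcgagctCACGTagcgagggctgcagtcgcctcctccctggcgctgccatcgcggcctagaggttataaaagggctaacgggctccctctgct
EGLN3: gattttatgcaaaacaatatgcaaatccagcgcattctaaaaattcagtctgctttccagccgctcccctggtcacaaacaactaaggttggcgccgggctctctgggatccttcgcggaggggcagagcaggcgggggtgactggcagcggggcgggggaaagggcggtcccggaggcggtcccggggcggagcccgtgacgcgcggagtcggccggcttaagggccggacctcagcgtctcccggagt

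PGK1 held 3 matches, the first starting 211 bases before the gene start, LDHA held 5 and ANKRD37 held 3. P4HA1 held 1 match, 86 bases before the start, and the stretch of EGLN3 held 0, although EGLN3 had the larger change. The RefSeq start of EGLN3 lies inside the longer GENCODE interval given above, so the annotations place its start differently. Over 300 bases, that is these 250 and the first 50 of the gene, at least 1 match was present in 63.9% of the 119 called-up genes with a RefSeq entry, in 58.8% of 17 called-down genes and in 62.9% of all 9996 tested genes with an entry. The share of called-up genes with these letters near the start thus lay close to that of all genes. Stretches with 3 or more matches made up 26.9% of the called-up genes, 23.5% of the called-down genes and 15.6% of all genes. Within the 100 bases before the start the shares with a match were 32.8%, 35.3% and 33.2%. A match is only a run of letters, and its absence from these bases says nothing of more distant sites.

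Of 8 tested genes that adapt mitochondria, both BNIP3 family members were called up, beside 1.33% of all genes. BNIP3 and BNIP3L encode receptors in the outer mitochondrial membrane that hand mitochondria to autophagy. BNIP3 was at 210.4 and 151 CPM in N and at 1112 and 804 CPM in H (log2FC 2.41, SE 0.36, adjusted p = 0.00528). BNIP3L was at 87.1 and 80.4 CPM in N and at 444 and 485 CPM in H (log2FC 2.47, SE 0.25, adjusted p = 0.000617). The other 6 tested genes of the list were not called, and the list's median log2FC was 0.48.

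Secreted factors that act on vessels and metabolism included 4 genes called up of 14 tested, beside 1.33% of all genes, with a list median of 1.26. ANGPTL4, an inhibitor of lipoprotein lipase, was at 308, 285, 2192 and 1793 CPM (log2FC 2.75, SE 0.40, adjusted p = 0.00445). ADM, the precursor of the vasodilator adrenomedullin, was at 49.7, 51.8, 235 and 214 CPM (log2FC 2.15, SE 0.23, adjusted p = 0.000763). The stanniocalcins STC1 (log2FC 2.84, SE 0.41, adjusted p = 0.00427) and STC2 (log2FC 2.14, SE 0.26, adjusted p = 0.00139) rose too. VEGFA, the main angiogenic growth factor, was higher in both hypoxic libraries at 11.9, 19.6, 79.5 and 70.5 CPM but did not pass (log2FC 2.25, SE 0.57, adjusted p = 0.0878).

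Enzymes that modify collagen gave calls in a similar proportion. Of 10 tested collagen and lysine hydroxylases and lysyl oxidases 4 were called up, beside 1.33% of all genes, and 8 had both hypoxic libraries above both normoxic ones, beside 17.2% of all genes. The median log2FC was 1.57. LOX, which cross-links collagen and elastin, was at 37.2 and 38.7 CPM in N and at 347 and 531 CPM in H (log2FC 3.53, SE 0.42, adjusted p = 0.00127). P4HA1 and P4HA2, the catalytic subunits of collagen prolyl hydroxylase, had log2FC of 1.90 (SE 0.21, adjusted p = 0.000905) and 2.16 (SE 0.25, adjusted p = 0.00127). P4HA1 was at 40.7, 50.8, 166 and 176 CPM and P4HA2 at 90.2, 82.7, 370.0 and 401 CPM. LOXL2 also rose (log2FC 1.87, SE 0.35, adjusted p = 0.022). The substrate COL1A1 was at 4.33, 4.93, 10.6 and 15.1 CPM (log2FC 1.47, SE 0.29, adjusted p = 0.0254), and it was the only called gene among the 5 tested fibroblast markers.

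The list of other known HIF targets was chosen because its genes respond to low oxygen in many cells, but with earlier results of these data known. It had 11 of 14 tested genes called up and all 14 with both hypoxic libraries above both normoxic ones (1.33% and 17.2% of all genes). This choice may have raised both counts. The list's median log2FC was 2.77, beside 2.60 in total mRNA. NDRG1, a stress-responsive gene used as a marker of hypoxia, went from 58.0 and 92.5 CPM to 1007 and 1700.5 CPM (log2FC 4.17, SE 0.39, adjusted p = 0.000297). TMEM45A, a membrane protein of the epidermis, went from 4.71 and 3.75 CPM to 114 and 108.8 CPM (log2FC 4.72, SE 0.33, adjusted p = 0.000126). PPFIA4, a liprin scaffold protein, went from 0.733 and 1.26 CPM to 39.0 and 38.4 CPM (log2FC 5.25, SE 0.57, adjusted p = 0.000763). For TMEM45A and PPFIA4 the replicates of H differed far less than H differed from N.

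VLDLR, a lipoprotein receptor, had a log2FC of 4.61 (SE 0.48, adjusted p = 0.000617). SPAG4, a nuclear envelope protein, was at 50.7 and 20.1 CPM in the hypoxic replicates, beside 1.54 and 1.06 CPM in N (log2FC 4.78, SE 0.51, adjusted p = 0.000763). RNASE4 had a log2FC of 3.14 (SE 0.33, adjusted p = 0.000741). It shares its first exons with ANG, so reads of this pair may be split uncertainly. MXI1, an antagonist of MYC, was at 5.97, 5.73, 35.8 and 37.7 CPM (log2FC 2.65, SE 0.33, adjusted p = 0.00175).

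**Figure D2:**
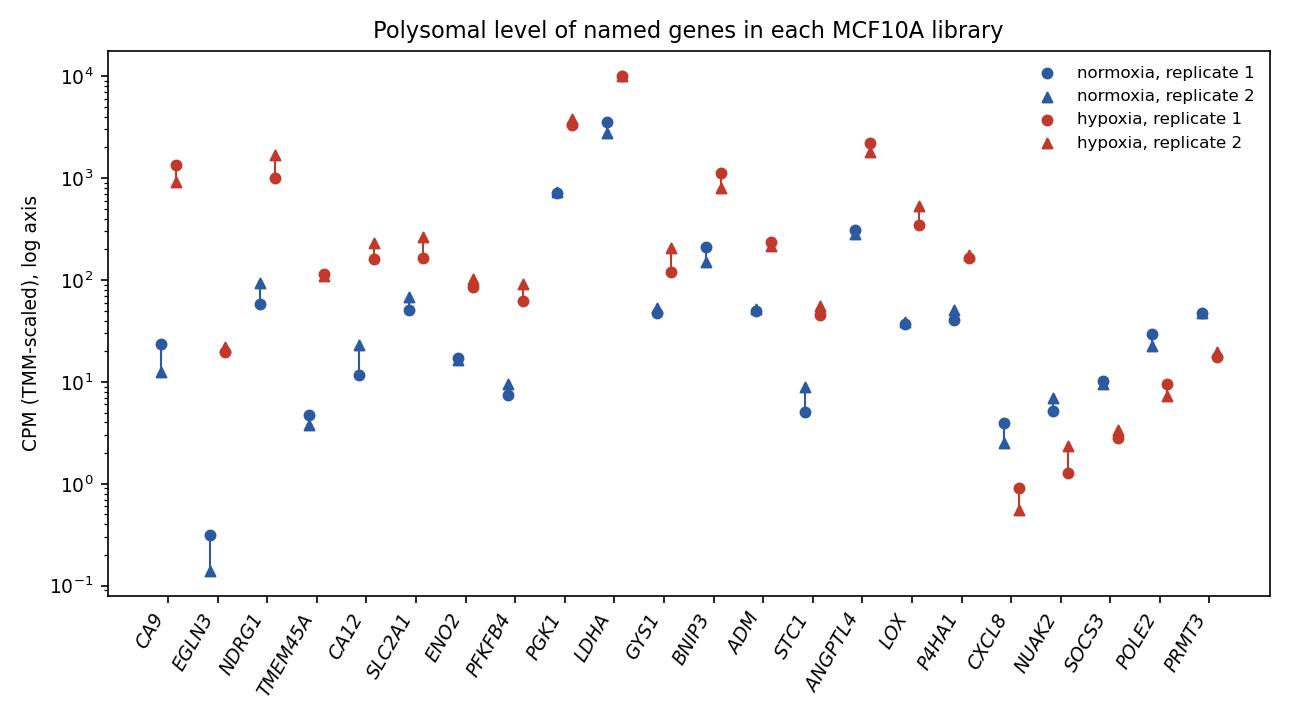
CPM on a log axis of 22 named genes in each of the 4 polysomal libraries, with normoxia in blue and hypoxia in red, replicate 1 as circles and replicate 2 as triangles. Each line joins the 2 replicates of a group; the groups do not overlap for any gene plotted, CA9 rising from 23.6 and 12.4 CPM to 1356 and 919 CPM and POLE2 falling from 29.5 and 22.4 CPM to 9.58 and 7.25 CPM.

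Of the 174 called-up genes only 42 were in any of the 38 lists, and several of the largest changes were outside them. C10orf10, also known as DEPP, a target of FOXO factors (chr10:44970981-44978809, GRCh38), had the largest log2FC among called genes with a mean of at least 2 CPM. It was at 0.0698 and 0.140 CPM in N and at 10.6 and 17.0 CPM in H (log2FC 6.91, SE 0.53, adjusted p = 0.000126). TREM1, an activating receptor best known from myeloid cells, was at 0.454, 0.361, 23.5 and 13.1 CPM (log2FC 5.49, SE 0.51, adjusted p = 0.000297). JAM2, a junctional adhesion molecule, was at 1.05, 0.521, 17.5 and 16.6 CPM (log2FC 4.46, SE 0.39, adjusted p = 0.000247). The uncharacterized C4orf47 (log2FC 4.43, SE 0.53, adjusted p = 0.00135) and the orphan receptor GPR146 (log2FC 4.41, SE 0.69, adjusted p = 0.00698) followed. In all of these genes the normoxic level was near or under 1 CPM, and 25 of the 174 called-up genes had a mean under 2 CPM over the 4 libraries.

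PTPRN, a phosphatase-like protein of secretory granules, had no reads in either normoxic library and was at 2.78 and 2.60 CPM in H. Against a limit of 3 reads per normoxic library, averaged over the group, it was at least 32.6-fold higher. This gene lies under no list and was named after its values were seen. With such genes at their bounds the median of the called-up genes stayed at 2.26.

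The 21 called-down genes were smaller in number and in size of change. TINAGL1, a secreted matricellular protein (chr1:31576485-31587686, GRCh38), was at 6.88 and 5.77 CPM in N and at 1.13 and 1.52 CPM in H (log2FC -2.24, SE 0.44, adjusted p = 0.0288). FHOD3, a formin that assembles actin, had a log2FC of -2.12 (SE 0.37, adjusted p = 0.0134), and the membrane protein TMEM156 had -2.08 (SE 0.31, adjusted p = 0.00528). SAMD11 was at 47.7, 28.7, 12.2 and 8.21 CPM (log2FC -1.90, SE 0.41, adjusted p = 0.0457) but failed in 9 of 15 alternative settings. For all 21 called-down genes both hypoxic libraries lay below both normoxic ones, where 20.2% of all genes did so. The calls and this count use the same 4 libraries, so the count is no separate support.

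NUAK2, a kinase of the AMPK family, was at 5.24, 6.87, 1.28 and 2.37 CPM (log2FC -1.72, SE 0.33, adjusted p = 0.0221). SOCS3, the feedback inhibitor of JAK-STAT signalling, was at 10.3, 9.56, 2.82 and 3.40 CPM (log2FC -1.67, SE 0.31, adjusted p = 0.0196). GPR3, a receptor that raises cAMP, fell with a log2FC of -1.58 (SE 0.31, adjusted p = 0.0292) but failed in 8 of 14 alternative settings. PRMT3, an arginine methyltransferase that acts on a protein of the small ribosomal subunit, was at 47.2, 47.8, 17.5 and 19.7 CPM (log2FC -1.35, SE 0.22, adjusted p = 0.00819). RAVER2 (log2FC -1.40), GPHN (log2FC -1.36) and UBE3D (log2FC -1.35) completed the 12 largest falls above 2 CPM, with adjusted p of 0.0276, 0.0119 and 0.0448, and UBE3D failed in 8 of 14 alternative settings.

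Genes of cell division lay lower in H as groups, although only 1 passed the test, beside 0.16% of all genes called down. Of 42 tested DNA replication genes all had a negative log2FC, 33 had both hypoxic libraries below both normoxic ones, where 20.2% of all genes did so, and the median was -0.69 in polysomal and -0.67 in total mRNA. POLE2, an accessory subunit of DNA polymerase epsilon, was the called member, at 29.5, 22.4, 9.58 and 7.25 CPM (log2FC -1.63, SE 0.29, adjusted p = 0.0169). The clamp PCNA was at 825, 534, 351 and 286 CPM (log2FC -1.09, SE 0.30, adjusted p = 0.116). Of 20 mitotic genes 19 lay lower in both hypoxic libraries with a median of -0.66, and none was called. CDC20, the activator of the anaphase-promoting complex, was at 553, 393, 317 and 201 CPM (log2FC -0.87, SE 0.36, adjusted p = 0.325). The medians of both lists kept their sign when any of the 4 libraries was left out, between -0.76 and -0.60 for replication and between -0.67 and -0.56 for mitosis.

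Ribosomal protein mRNAs had a lower median in polysomal mRNA without any member being called, beside 0.16% of all genes called down. Their median log2FC was -0.73 over 82 tested genes, beside -0.06 in total mRNA, and 80 of 82 were negative. Only 3 of 82 had both hypoxic libraries below both normoxic ones, where 20.2% of all genes did so. Between libraries of the same replicate number the mean log2 CPM of the list went from 10.71 to 10.01 in replicate 1 and from 9.57 to 8.92 in replicate 2, so the difference between H and N was -0.70 and -0.65. RPL19 was at 5867 and 2789 CPM in N and at 3114 and 1797 CPM in H (log2FC -0.82, SE 0.53, adjusted p = 0.62), and RPL8 was at 5317, 2501, 3414 and 1884 CPM (log2FC -0.56, SE 0.58, adjusted p = 0.822). The median went to 0.01 without normoxia replicate 1 and to -1.24 without hypoxia replicate 1. Replicate 1 was the library with the higher share of ribosomal protein reads in both conditions, and what part that share has in the difference was not tested.

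The other mRNAs that begin with a terminal oligopyrimidine (TOP) tract, a feature that ties translation to mTORC1, had a median of -0.51 over 21 tested genes, beside -0.08 in total mRNA, and 0 calls. The elongation factor EEF1A1 was at 12545, 9885, 9257 and 9346 CPM (log2FC -0.27, SE 0.45), and the nucleolar NPM1 was at 5142, 3735, 2356 and 2013 CPM (log2FC -1.02, SE 0.29, adjusted p = 0.13). Translation factors outside the TOP class had a median of -0.32 and ribosome biogenesis genes -0.28, with 0 of 22 and 0 of 21 called. Only 0.16% of all genes were called down, so 0 calls in lists of this size lies near that share. Mitochondrial ribosomal proteins (median -0.43, 77 tested), nuclear-encoded respiratory chain subunits (median -0.31, 77 tested) and the 13 mitochondrially encoded mRNAs (median 0.03) had no called member. The first of these 3 medians went to 0.04 and the second to 0.26 without normoxia replicate 1, so neither list kept its sign. Within each replicate number their mean log2 CPM was lower in H, the difference being -0.40 and -0.38 for mitochondrial ribosomal proteins and -0.30 and -0.38 for respiratory chain subunits.

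**Figure D3:**
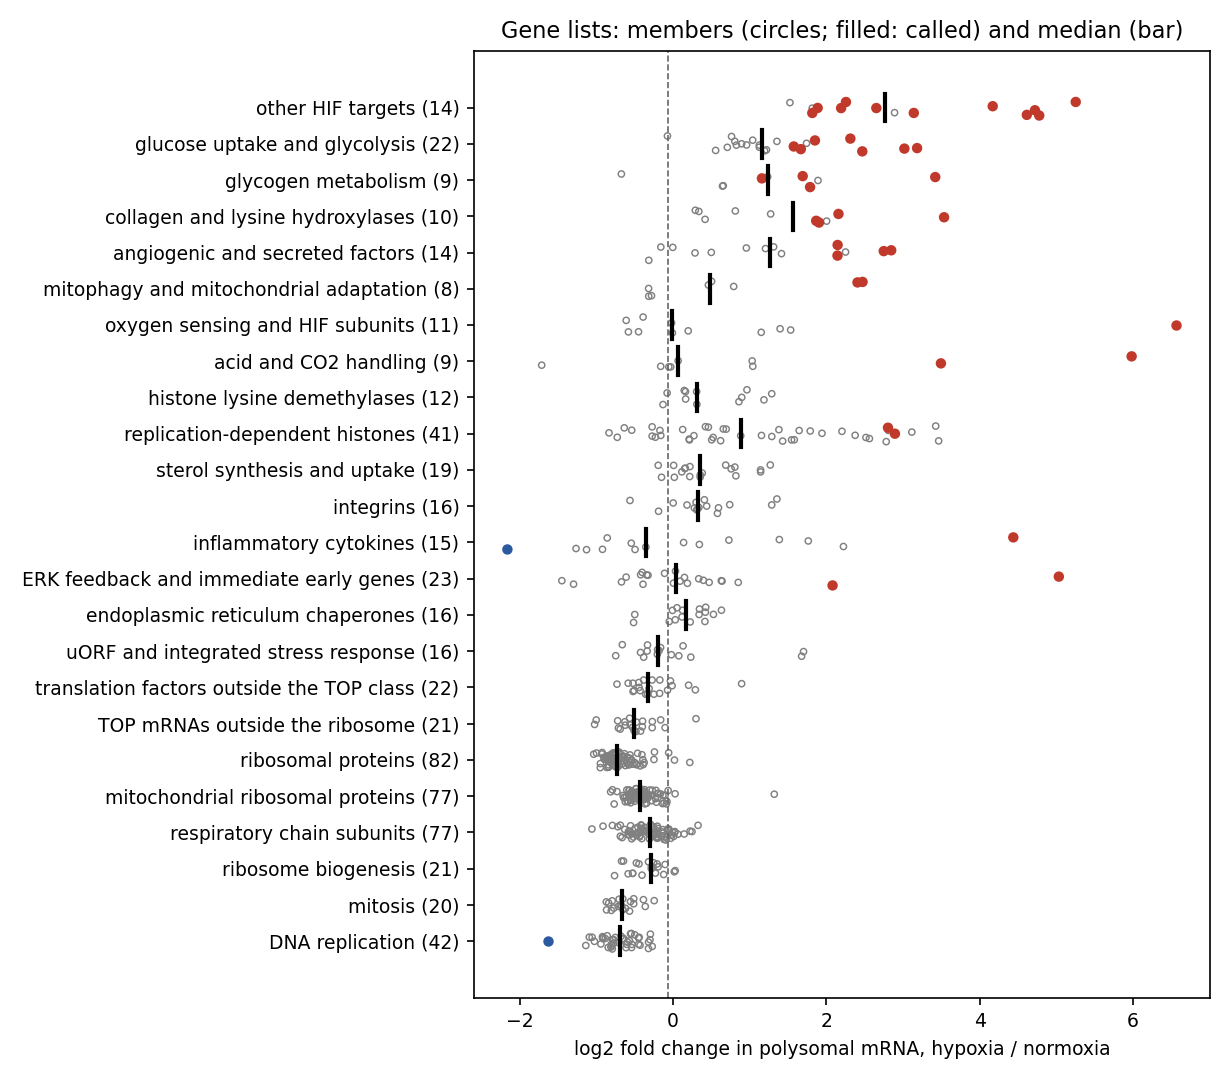
Log2 fold change in polysomal mRNA, hypoxia over normoxia, for the tested members of 24 gene lists, with the number tested in brackets. Open circles are members that were not called, filled circles are called members (red up, blue down), black bars are list medians and the dashed line is the median of all genes at -0.07; HIF targets, glycolysis and collagen hydroxylases lie to the right, and replication and mitosis lie to the left with 1 filled circle.

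Several further lists held no called gene. Over all genes 1.33% were called up and 0.16% down, so 0 calls in lists of this size lies near that share. DDIT4, which encodes the mTORC1 inhibitor REDD1, was higher in both hypoxic libraries at 585, 765, 2077 and 1941 CPM but did not pass (log2FC 1.57, SE 0.42, adjusted p = 0.103). None of the 9 tested mTORC1 brakes was called (median 0.16). Nor was any of 16 genes of the uORF and integrated stress response (median -0.19), where the transcription factor ATF4 was at 427, 225, 386 and 114 CPM, or any of 16 endoplasmic reticulum chaperones (median 0.17). Oxygen-dependent histone lysine demethylases (12 tested, median 0.31), sterol synthesis genes (19 tested, median 0.35), interferon-stimulated genes (24 tested, median 0.11), ID proteins and BMP signalling (12 tested, median -0.20), metallothioneins (5 tested, median 0.38) and HOX genes (20 tested, median 0.04) had 0 calls each. The metallothionein MT2A was at 12779 CPM in hypoxia replicate 1 and at 1839 CPM in replicate 2, so hypoxic libraries lay on both sides of the normoxic ones.

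Epithelial genes moved in part. KRT6A, a keratin of activated epidermis with near-identical copies, was at 41.3 and 21.1 CPM in N and at 249.92 and 250.04 CPM in H (log2FC 3.00, SE 0.51, adjusted p = 0.0131). It was the called member among 11 basal markers (median 1.23) and among 17 keratins (median 0.57), beside 1.33% of all genes called up. KRT14 was at 1041, 554, 2638 and 3101 CPM without passing (log2FC 1.85, SE 0.45, adjusted p = 0.0753). Luminal markers had 0 of 6 called (median -0.30), and genes of the epithelial-mesenchymal transition had 0 of 21 (median 0.13). Among markers of mesenchymal breast cancer cells LOX was the only 1 of 8 called (median 0.06), beside the same 1.33% of all genes. Leukocyte markers (2 tested, median 0.59) and endothelial markers (3 tested, median 0.31) had 0 called.

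Integrins included no called gene among 16 tested, beside 1.33% of all genes called up, with a median of 0.33. ITGB3, the beta-3 integrin subunit that the study's title names, was at 0.663 and 6.05 CPM in N and at 4.06 and 12.5 CPM in H. The 2 normoxic replicates were further apart than the 2 groups, and the ranges overlapped (log2FC 1.29, SE 0.87, adjusted p = 0.636). Within each replicate number ITGB3 was higher in H, at 0.663 and 4.06 CPM in replicate 1 and at 6.05 and 12.5 CPM in replicate 2. The log2FC depended on single libraries, being 0.25 without hypoxia replicate 2 and 0.54 without normoxia replicate 1. It was 1.96 without hypoxia replicate 1 and 3.64 without normoxia replicate 2. These fits compare libraries of unlike number. In total mRNA ITGB3 was at 6.42 and 5.14 CPM in N and at 11.04 and 8.21 CPM in H (log2FC 0.74, adjusted p = 0.96). The difference between polysomal and total log2FC was 0.55 and rests on the same libraries.

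Of the inflammatory genes 1 was called up and 1 down, and of the immediate early genes 2 were called up. Of all genes 1.33% were called up and 0.16% down. IL1A, an alarm cytokine of epithelia, was at 0.210 and 0.1002 CPM in N and at 4.09 and 2.42 CPM in H (log2FC 4.44, SE 0.65, adjusted p = 0.00495). CXCL8, which draws neutrophils, was at 3.95, 2.53, 0.901 and 0.559 CPM (log2FC -2.16, SE 0.36, adjusted p = 0.0102). They were the called members of 15 tested inflammatory genes, whose median was -0.35. Of 23 ERK feedback and immediate early genes (median 0.03) JUN and SPRY1 were called up. JUN, a subunit of the AP-1 transcription factor, was at 93.3, 87.9, 362 and 405 CPM (log2FC 2.08, SE 0.29, adjusted p = 0.00334), and SPRY1, an inhibitor of receptor tyrosine kinase signalling, was at 0, 0.220, 4.28 and 4.30 CPM (log2FC 5.03, SE 0.78, adjusted p = 0.00698). The size of the SPRY1 value depends on the few reads of normoxia replicate 2, since the other normoxic library has none. Without normoxia replicate 1 it was 4.34, and without replicate 2 the fitted value has no reads in N to rest on.

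Replication-dependent histone genes had a positive median of 0.88 over 41 tested, with 2 called up, beside 1.33% of all genes. Both hypoxic libraries lay above both normoxic ones for 19 of the 41, where 17.2% of all genes did so. HIST1H2AC was at 18.1, 15.9, 165 and 87.2 CPM (log2FC 2.89, SE 0.59, adjusted p = 0.0343) and HIST1H2BD at 12.01, 6.49, 86.1 and 42.8 CPM (log2FC 2.80, SE 0.56, adjusted p = 0.0303). The usual transcripts of these genes end in a stem-loop without poly(A), so poly(A)-selected libraries hold mainly their polyadenylated forms, and near-identical copies share reads. The summed level of the list was 153 and 82.8 CPM in N and 746 and 321 CPM in H.

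The polysomal changes were next set beside those in total mRNA, to ask whether any gene changed its share on polysomes. In total mRNA 183 genes were called up (1.39%) and 19 down (0.145%). Of the 174 genes called up in polysomal mRNA all 174 had both hypoxic libraries above both normoxic ones in total mRNA as well, which 23.6% of all tested genes did, and 153 were called there. Of the 21 called down all 21 had both hypoxic libraries below both normoxic ones in total mRNA, which 26.8% of all genes did, and 12 were called down there. The median log2FC of the called-up genes was 2.26 in polysomal and 2.27 in total mRNA, and that of the called-down genes was -1.58 and -1.33. The libraries of the fractions are separate, but total and polysomal libraries share a number in their titles and may come from the same culture. The fit took no account of this.

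The difference of the polysomal from the total response, called Te for translational efficiency, was tested as an interaction term. It was called for 0 of 13124 genes (0%), with a smallest adjusted p of 0.999975, and DESeq2 also gave 0. An unadjusted p under 0.05 was found for 23 genes, far fewer than a share of 0.05 of all 13124 tests. The p-values thus ran high, and the Te values had an SD of 0.54 over genes. The 0 calls therefore do not show that loading stayed the same. The median SE of a Te value was 0.55 in this fit, which did not pair the fractions by culture. A shift in loading would have to be well above this SE to be detectable in it with 2 libraries a group.

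No gene was called for Te, so the values below only describe the genes with the smallest unadjusted p among those with at least 2 CPM. In the interaction test the unadjusted p was 0.0529 for SCHIP1, 0.0750 for CAPS, 0.0885 for MXI1 and 0.166 for TMEM45A. These missed 0.05 even before adjustment. SCHIP1, a cytoskeletal adaptor, had a log2FC of 1.76 in polysomal and 0.78 in total mRNA (Te 0.99, SE 0.46). CAPS, a calcium-binding protein, had 1.73 and 0.86 (Te 0.87, SE 0.44). MXI1 had 2.65 and 1.82 (Te 0.83, SE 0.44), and TMEM45A had 4.72 and 4.12 (Te 0.60). RGPD5, which belongs to a family of near-identical copies, had a Te of 2.77 but was at 21.1 and 3.63 CPM in the hypoxic polysomal replicates, and the readthrough transcript BCL2L2-PABPN1 had a Te of 0.83.

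In the other direction RAB43 had a Te of -1.46, the readthrough INO80B-WBP1 -1.22, CTC-260F20.3 -1.21, SMPDL3A -0.87 and ZNF497 -0.74. None of these 5 was called in polysomal mRNA. RP11-577H5.5 had no reads in either hypoxic polysomal library and was at 3.56 and 0.561 CPM in N. Against a limit of 3 reads per hypoxic library, averaged over the group, it was at least 22.9-fold lower in polysomal mRNA, and its call was lost in 8 of 14 alternative settings. In total mRNA it was at 3.94, 5.04, 1.78 and 3.22 CPM, so the gene was present in hypoxic cells.

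**Figure D4:**
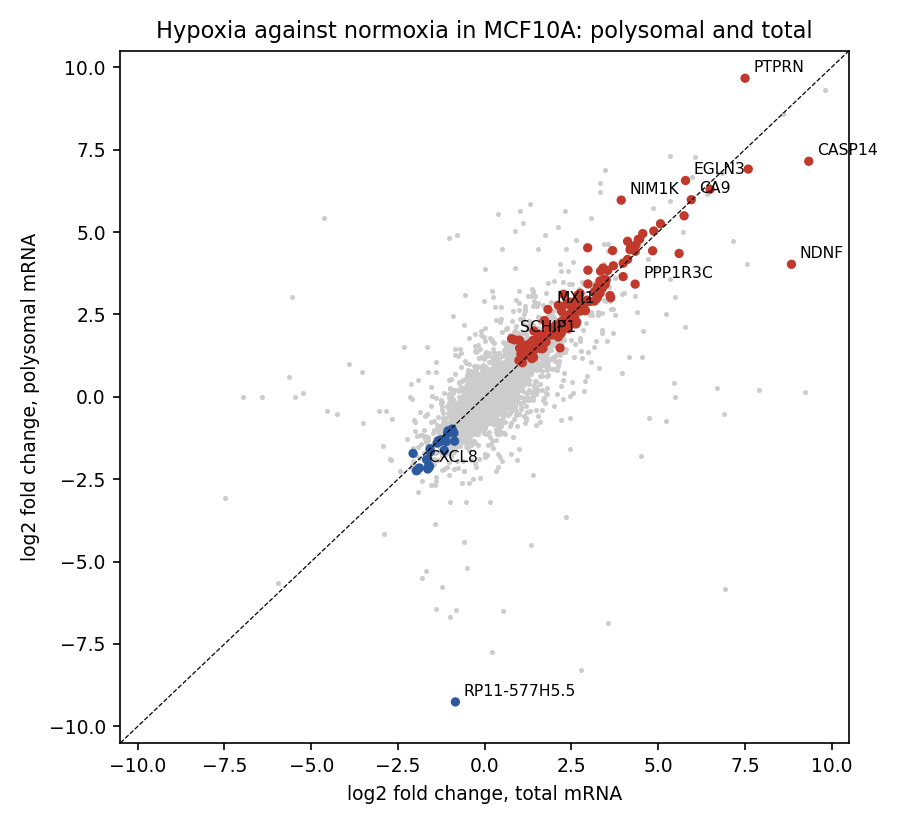
Log2 fold change in hypoxia over normoxia for 13124 genes, in total mRNA on the x axis and in polysomal mRNA on the y axis, with equal changes on the dashed line. Red and blue points are genes called up and down in polysomal mRNA, and most follow the dashed line. NDNF, at 0 CPM in both normoxic total libraries, and RP11-577H5.5, without reads in either hypoxic polysomal library, lie far from it.

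The libraries treated with PP242 share no library with the comparison above, so they give each gene's response to hypoxia once more, with 3 h of mTOR inhibition. All 174 genes called up had a positive log2FC of HPP over NPP in polysomal mRNA, and 173 had both HPP libraries above both NPP libraries, which 28.9% of all tested genes did. Their median log2FC was 2.23 under PP242 and 2.26 without it. CA9 had a log2FC of 5.93, NDRG1 of 3.07, LOX of 3.86 and ANGPTL4 of 4.26 under PP242. Of the 21 called down 18 had the same sign, and 18 had both HPP libraries below both NPP libraries, which 35.5% of all genes did. CXCL8 was an exception, with 0.25 under PP242 beside -2.16 without it, and that difference was not tested.

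In MDA-MB-231 cells, mesenchymal-like and tumourigenic, the same comparison called 241 of 13510 genes up (1.78%) and 69 down (0.511%). Of the 174 genes called up in MCF10A 151 were tested in MDA-MB-231, 133 had the same sign and 52 were called up there. Their median log2FC there was 0.72. The genes were chosen for their change in MCF10A, which favours larger values in that line. Of 20 tested called-down genes 13 had the same sign and 1 was called. In a joint fit of the 32 libraries CA9 had a log2FC of 5.60 in MDA-MB-231, and its difference between the lines did not pass (0.45, SE 0.88). NDRG1 had 3.74 there, PPFIA4 5.03, BNIP3 2.74 and ANGPTL4 2.61.

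The difference between the lines was tested in the joint fit as an interaction, and it was called for 47 of 14298 genes (0.329%), 39 with the larger log2FC in MCF10A and 8 with the lower. An unadjusted p under 0.05 was found for 928. Of the 47 called genes 23 had opposite signs in the lines. Among the 47 were 34 of the 174 genes called up in MCF10A, each with the larger log2FC in MCF10A. The 174 genes were chosen by the same MCF10A libraries, so this direction was favoured beforehand. The number is sensitive to single libraries, since leaving out 1 library gave between 14 genes (without hypoxic MDA-MB-231 replicate 2) and 34 genes (without hypoxic MCF10A replicate 1). It was 15 and 26 without the normoxic MDA-MB-231 replicates 1 and 2, 24 without hypoxic MDA-MB-231 replicate 1, 20 without either hypoxic MCF10A replicate 2 or normoxic MCF10A replicate 1, and 31 without normoxic MCF10A replicate 2. A fit on the 8 polysomal libraries compared gave 0 calls. A block on the replicate number gave more than the 47 calls, as given at the end. The joint fit shared its spread between the lines. Fitted apart, the median SE was 0.39 for MCF10A but 0.19 for MDA-MB-231. For SPRY1 the SE of the difference was 0.64, below the 0.78 of its MCF10A change alone. It was also below for EGLN3 (0.48 and 0.53), VLDLR (0.46 and 0.48) and FAM213A (0.38 and 0.44). It was above for C10orf10, CA12, SLC37A2, TINAGL1, TMEM156 and CXCL8. The p-values of the difference may thus understate the MCF10A spread.

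CA12 rose in MCF10A and had a negative log2FC in MDA-MB-231 that was not called. On the scale of the joint fit it was at 9.58 and 6.38 CPM in N and at 5.48 and 5.24 CPM in H in MDA-MB-231, beside 12.7, 25.8, 182 and 275 CPM in MCF10A (difference of log2FC 4.14, SE 0.50, adjusted p = 0.000209). SPRY1 stood at 29.0, 23.5, 22.8 and 21.9 CPM in MDA-MB-231, far above its normoxic level in MCF10A (difference 5.27, SE 0.64, adjusted p = 0.000209). This difference was 4.54 without normoxic MCF10A replicate 1, the library without SPRY1 reads. SLC37A2, a sugar phosphate transporter, stood at 63.3, 65.0, 45.9 and 48.1 CPM there and at 0.939, 1.37, 5.58 and 6.08 CPM in MCF10A (difference 2.77, SE 0.33, adjusted p = 0.000209). For SPRY1 and SLC37A2 the line that rose was the line with the lower level, in both conditions.

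EGLN3, VLDLR and C10orf10 rose in both lines but by less in MDA-MB-231. EGLN3 was at 6.46, 7.23, 36.8 and 28.04 CPM in MDA-MB-231, so the lines were closer in hypoxia than in normoxia (difference 4.42, SE 0.48, adjusted p = 0.000127). VLDLR had a difference of 3.72 (SE 0.46, adjusted p = 0.000257) and C10orf10 of 5.28 (SE 0.72, adjusted p = 0.000767). In the other direction CXCL8 was at 21.7, 9.98, 39.0 and 22.6 CPM in MDA-MB-231, without overlap and without being called there, beside its fall in MCF10A (difference -3.05, SE 0.60, adjusted p = 0.0251). TINAGL1 (difference -2.63, adjusted p = 0.00943), FAM213A (-2.30, adjusted p = 0.00679) and TMEM156 (-2.05, adjusted p = 0.0187) fell in MCF10A and were at much higher levels in MDA-MB-231, such as 72.3, 66.5, 91.6 and 101.4 CPM for TINAGL1. The fall of FAM213A in MCF10A failed in 8 of 14 alternative settings. LYPD1 and TMCC2 had differences of -4.45 (adjusted p = 0.0433) and -2.14 (adjusted p = 0.0471). LYPD1 had no reads in hypoxic MCF10A replicate 1 and was at 0.186 CPM in replicate 2, so its value depends on few reads. Both calls were lost in most of the alternative settings.

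**Figure D5:**
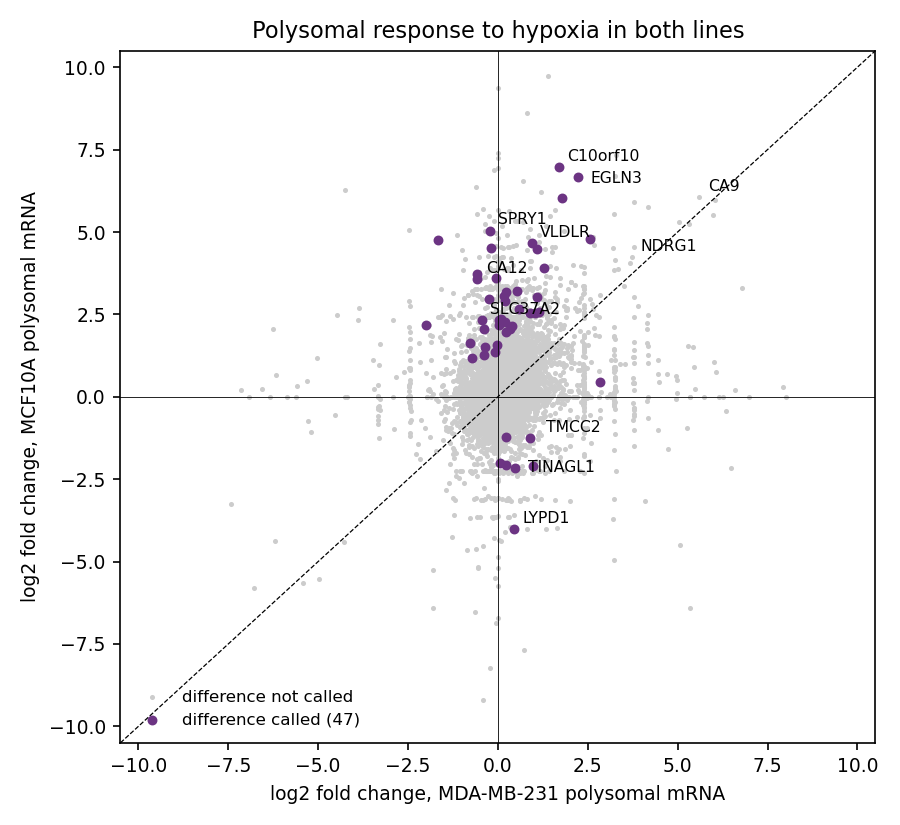
Log2 fold change in polysomal mRNA, hypoxia over normoxia, in MDA-MB-231 on the x axis and in MCF10A on the y axis, for the 14298 genes of the joint fit, with equal changes on the dashed line. Purple points are the 47 genes whose difference between the lines was called; most lie above the dashed line near 0 on the x axis, while CA9 and NDRG1 lie near the dashed line.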

How the data were processed

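Per the labels, cells were lysed with cycloheximide, polysomal mRNA was taken from a 10%–50% sucrose gradient, and libraries were made with a poly(A) kit that does not mark strand. The authors aligned reads with STAR and estimated counts with RSEM, and the deposited table holds expected counts as whole numbers for 16 MCF10A and 16 MDA-MB-231 libraries. The sources used here differ on the genome build (GRCh37 in the labels, GRCh38 in the methods), so gene positions were taken from GENCODE v44 on GRCh38 by identifier and no coordinate came from the counts.

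Counts of protein-coding genes were fitted with edgeR 4.0.16 (R 4.3.3, limma 3.58.1) with TMM scaling, filterByExpr over 8 groups and the quasi-likelihood test, with all 16 MCF10A libraries in the fit (biological coefficient of variation 0.325). Te was an interaction in this fit. The difference between the lines was an interaction in a fit of 32 libraries, with a spread shared by both lines. Adjusted p-values in the text are Benjamini-Hochberg values over all genes tested. Gene-wise code was tested on simulated data. A cell lysate may hold fewer copies of an mRNA or fewer ribosomes on it, and a polysomal level alone cannot tell these apart. Identical or near-identical libraries were looked for and not found.

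The genes named are CA9, ITGB3 and up to 4 called members of each of 38 lists by smallest p. Also named are the 12 largest called changes each way with at least 2 CPM and the 6 smallest p each way of both interactions. Abundant members of some lists without calls were added. Further genes (among them LDHA, SLC2A1, SLC2A3, GAPDH, VEGFA, DDIT4, HIF1A, EGLN1, SLC16A3, CA2, KRT5, KRT14, POSTN, PCNA, CDC20, PTPRN, MXI1 and ANKRD37) were named after their values were seen. Members and lists were chosen with earlier results of these data known. DESeq2 1.42.0, other scalings, filters, sample sets and thresholds, a replicate block, thinned counts, all gene classes, an offset for gene length and leaving out each library were tried as alternatives. Promoter letters were searched in RefSeq sequence (GRCh38.p14).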

Additional observations from a re-analysis of the deposited data

Results flagged for a closer look

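The response to hypoxia in polysomal mRNA differed between MCF10A and MDA-MB-231 for 12 named genes by the interaction test of the joint fit (edgeR quasi-likelihood test, Benjamini-Hochberg adjusted p under 0.05). The difference of log2FC, MCF10A minus MDA-MB-231, was 5.28 for C10orf10, 5.27 for SPRY1, 4.42 for EGLN3, 4.14 for CA12, 3.72 for VLDLR and 2.77 for SLC37A2. The value for SPRY1 depends on its few reads in 1 normoxic MCF10A library, the other having none. It was -4.45 for LYPD1, -3.05 for CXCL8, -2.63 for TINAGL1, -2.30 for FAM213A, -2.14 for TMCC2 and -2.05 for TMEM156. The value for LYPD1 likewise depends on few reads in 1 hypoxic MCF10A library, the other having none. Of these genes LYPD1 (adjusted p = 0.0724) and TMCC2 (adjusted p = 0.0931) were not called in MCF10A alone. The joint fit shared its spread between lines of unlike SE, so the calls of the difference may understate the MCF10A spread.

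Genes outside the protein-coding class entered no comparison above. With all classes in the fit 3586 further genes were tested, of which 21 were called up and 0 were called down by the same test. Among the 4 with the smallest p, RP11-61L23.2, a pseudogene, was at 1.00, 1.18, 8.89 and 8.86 CPM (log2FC 3.02, SE 0.33), and the lincRNA C1orf132 had a log2FC of 2.57 (SE 0.42). The processed pseudogenes BNIP3P1 (log2FC 2.78, SE 0.33) and LDHAP4 (log2FC 1.74, SE 0.27) are near copies of BNIP3 and LDHA, and how their reads were divided from those of their parents is uncertain. Groups of 2 libraries are too small for a test of outlying samples.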

How the results depend on the processing

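The direction held under all settings tried for the 63 called polysomal genes that were followed and for the genes named for Te and the difference between the lines, whereas the number of calls did not. All these genes were chosen from the same libraries, and the groups of every called polysomal gene did not overlap. A change of sign was therefore unlikely beforehand, and the kept direction is no separate support. Polysomal calls (174 up, 21 down) became 386 and 170 with DESeq2, 300 and 87 with an offset for gene length, 270 and 68 at an adjusted p under 0.10, and 6 and 0 with only the 4 libraries. Called-down genes were 13 without a filter on low counts, 8 with at least 10 CPM in 2 libraries, 13 with thinned counts and 5 with polysomal libraries alone. Leaving out 1 library gave 49 to 120 up and 1 to 5 down. The 47 calls of the difference between the lines became 129 with DESeq2, 84 with the length offset, 89 at an adjusted p under 0.10, 0 with only the libraries compared, and 14 to 34 without 1 library. Fewer samples or genes enter some of these fits; otherwise the cause was not tested. For these 63 genes 94 results lost the call and 586 kept it over the other settings, and 143 kept it and the rest lost it without 1 library. Of 20 genes followed that were not called 4 changed sign. HIF1A went to 0.018 with DESeq2 and with RLE factors, 0.071 with upper-quartile factors, 0.062 without a filter, 0.096 with at least 10 CPM, 0.070 with only the 4 libraries, 0.041 with polysomal libraries alone and 0.0022 with thinned counts. Without 1 library the ranges were -0.35 to 0.34 for HIF1A, -1.44 to 0.24 for ATF4, -1.54 to 1.18 for MT2A and -1.01 to 0.15 for RPL8.

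Te stayed at 0 calls each way, 0 to 0 without 1 library, and no fit with polysomal libraries alone can give it. A rule on the z-score of the difference of log2FC, over 1.5 either way among genes with a polysomal adjusted p under 0.05, gave 9 up and 5 down, and 18 and 9 at 0.10. This rule has no test of its own, and NDNF and RP11-577H5.5 gave its largest values.

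With the replicate number as a block, polysomal calls were 368 up and 163 down, and those of the difference between the lines 141, of which 38 were lower in MCF10A. Replicate differences of the polysomal groups correlated between -0.10 and 0.63 and exceeded 0.1 for 3 of 6 pairs of groups, N with H being the highest. Those of the total groups correlated between 0.28 and 0.78, over 0.1 for all 6 pairs. Titles of the MCF10A samples are numbered consecutively within each replicate, but no label ties a number to a shared batch. The polysomal pairs differed, so the main fit did not pair samples by number. For N with H, the pair compared here, the correlation was 0.63, so the SE and calls of the main fit leave out a possible pairing. Leaving out 1 library compares libraries of unlike number, and for ribosomal proteins, mitochondrial ribosomal proteins and respiratory chain subunits the mean within each number was lower in H.

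Of the list medians under other scalings or without 1 library 54 moved by more than the spread between replicates, and 9 changed sign in lists with a called member. The medians of ribosomal proteins, mitochondrial ribosomal proteins and respiratory chain subunits, which had no called member, also changed sign without normoxia replicate 1. Oxygen sensing went to 0.0183 with RLE factors and 0.071 with upper-quartile factors, and without 1 library it ranged from -0.28 to 0.64. Without 1 library the medians ranged from -0.70 to 0.18 for inflammatory cytokines, from -0.060 to 0.13 for ERK feedback, from -0.079 to 0.35 for mesenchymal cancer markers and from -0.21 to 0.97 for keratins. With a window of 100 bases the share of called-up promoters with the letters fell from 63.9% to 32.8%. Depth limits genes under 1 CPM, where 3 reads correspond to 0.0601 to 0.113 CPM.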
